A study of Mus musculus with 15 samples.

Results

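The cytochrome P450 genes of the mouse kidney are described here in kidneys with and without the nuclear receptor ERRγ, encoded by Esrrg. Members were chosen by symbol alone: every symbol that starts with Cyp and a digit, without the vitamin D enzymes Cyp24a1 and Cyp27b1. This gave 100 of 23393 genes. A member was judged in a comparison where its mean normalized count was at least 10, and 50 members reached this in at least 1 comparison, 43 in all 3 and 50 in none. Means of 0 were listed for 27, 26 and 23 members in the authors' deposited tables of 3-week males, 3-week females and 3-month males. Next to the threshold, Cyp2d10 had a mean of 8.17 and the pseudogene Cyp4f41-ps one of 13.2 in the authors' deposited table of 3-week males.

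All animals were C57BL/6 mice that carried the floxed alleles ERRg fl/fl. Control animals had no Cre, and knockout littermates were ERRg fl/fl;Sim1-Cre, so that the receptor was targeted in cells that the Sim1-Cre transgene reaches and not in every kidney cell. Polyadenylated RNA was sequenced from 15 kidneys: at 3 weeks of age from 2 control and 3 knockout males and from 2 control and 2 knockout females, and at 3 months from 3 control and 3 knockout males. The data are the authors' own 3 comparisons of genotype, 1 per sex and age, which give each gene a mean over libraries, a log2 fold change ± its standard error (SE) and a p-value, but no value per library.

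Cytochromes P450 are haem enzymes that insert 1 atom of oxygen into a substrate, with electrons that reach them from NADPH through a reductase in the endoplasmic reticulum or through ferredoxin in mitochondria. In the kidney they sit largely in proximal tubule cells, where Cyp4 enzymes hydroxylate fatty acids, Cyp2j and Cyp2c enzymes turn arachidonic acid into epoxides, and Cyp2 enzymes oxidize drugs. Other members make bile acids and steroid hormones or clear retinoic acid. Several P450 genes of the mouse kidney are known to depend on androgen and so to differ between adult males and females.

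Before the results, several properties of the libraries bear on them. The file headers do not name the direction of the ratio; it was read as knockout over control, because the series title ties the receptor to reabsorptive and mitochondrial genes, and with the ratio turned every "higher" below would read "lower". The floxed exon is not named, and Esrrg itself went against its label at 3 weeks, at a log2 fold change of 0.82 ± 0.20 (adjusted p = 6.13e-04) in males and 1.04 ± 0.17 (adjusted p = 1.70e-08) in females in the authors' deposited tables; at 3 months it was -0.87 ± 0.57 with no p-value. The groups are therefore the libraries labelled knockout and control throughout. A source field calls the 3-month knockout animals female, whereas title and sex field say male; mean counts of 4 Y-linked genes in the authors' deposited table of that age were 430.4 to 1477 and that of Xist was 11.9, against an Xist mean of 23849 in females. Recurring steps in the lowest means fitted 4, 4 and 5 libraries in the 3 tables, of which 2 each went with positive fold changes, where the labels give 5, 4 and 6. The mean normalized counts of a table summed to 47478811, 33861809 and 18805533, and the lowest total is that of 3 months.

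With the authors' scaling, more P450 genes were called lower than higher in each comparison. A gene was called where the authors' adjusted p was under 0.05. In 3-week males the authors' deposited table called 17 of 42 members with a p-value (40.5%), 6 higher and 11 lower, against 17.3% of all genes, of which 8.81% higher and 8.52% lower. In 3-week females 12 of 35 members were called (34.3%) in the authors' deposited table, 4 higher and 8 lower, against 18.7% of all genes, with 8.29% higher and 10.4% lower. At 3 months 22 of 27 members were called (81.5%) in the authors' deposited table, 9 higher and 13 lower, against 57.5% of all genes, 29.8% higher and 27.8% lower. Median log2 fold changes of the tested members were -0.07, -0.09 and -0.82 in the authors' deposited tables, beside -0.01, 0.01 and 0.01 over all tested genes. With scaling to total counts in place of the authors' scaling, which adds 0.18, 0.15 and 0.49 to each log2 fold change, the members called in 3-week males came to 16, of which 50% were lower instead of 64.7%.

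A further 5, 13 and 18 judged members had the status Outlier, which gives a fold change without a p-value. Without values per library, what set this status for a gene could not be seen, and a single library may drive such a value. They include many of the most abundant members. Of the 18 at 3 months, 13 had negative and 5 positive fold changes, from -3.60 for Cyp2a4 to 4.36 for Cyp4f39, in the authors' deposited table. Of the 13 in females, 11 were negative. The calls above thus leave out a large part of the family, and neither these values nor their signs carry a test. With them, the median over all judged members was 0.00, -0.19 and -1.31 in 3-week males, 3-week females and 3-month males.

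**Figure D1:**
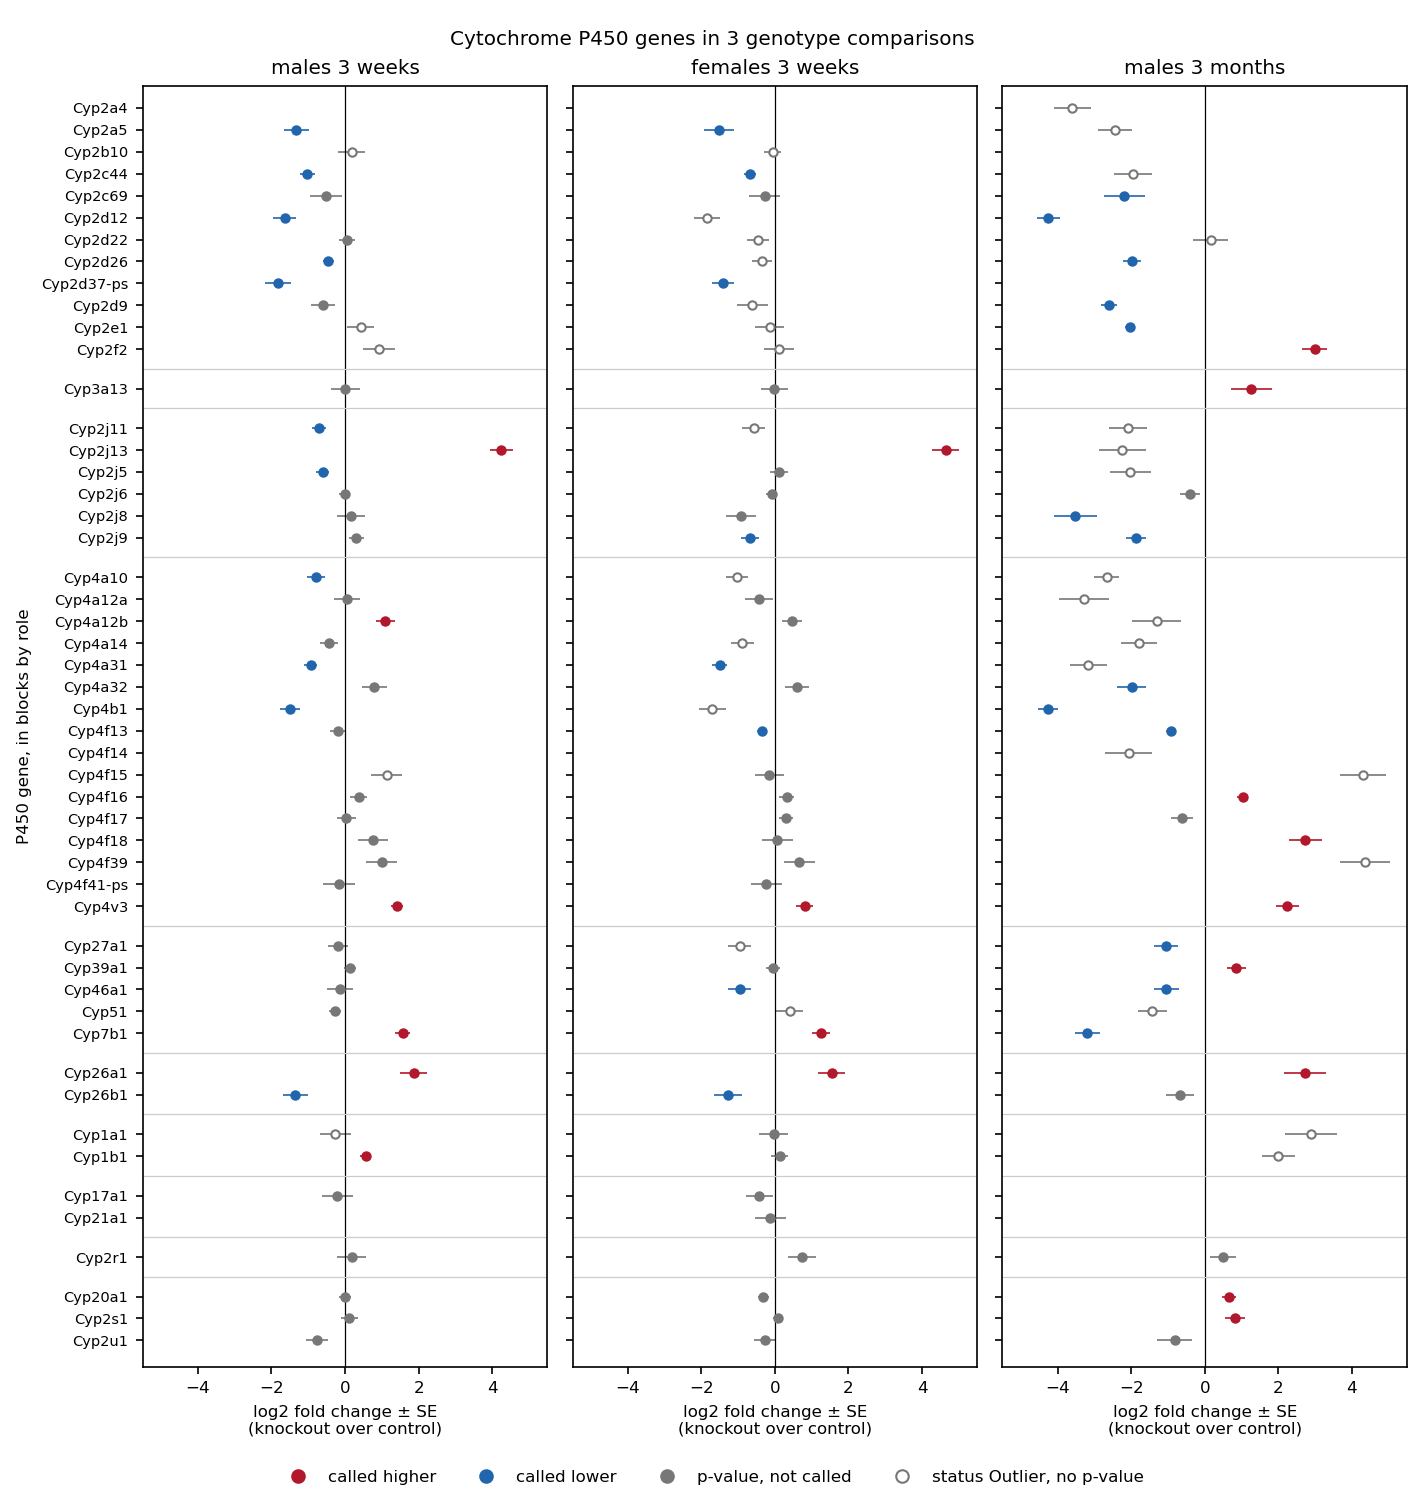
Log2 fold change (knockout over control, x axis, bars are ± SE) of each judged P450 gene (y axis, in blocks by role) in 3-week males, 3-week females and 3-month males; red and blue points were called higher and lower, grey points were not called and open points have no p-value. Most blue points lie in the Cyp2, Cyp2j and Cyp4 blocks, and Cyp26a1 and Cyp4v3 are red in every panel.

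Of 20 members with a p-value in all 3 comparisons, Cyp26a1 and Cyp4v3 were called higher in all of them and none was called lower in all. The share of all genes called in all 3 was not computed. Genes of the status Outlier in any comparison are left out of these 20. Of the 43 members judged in every comparison, 17 had negative and 9 had positive fold changes in all 3, with or without a p-value. Retinoic acid clearance is the task of the Cyp26 enzymes, and Cyp26a1 is also a known retinoic acid target. Cyp26a1 had mean counts of 51.0, 31.1 and 46.0 in 3-week males, 3-week females and 3-month males in the authors' deposited tables. Its log2 fold changes were 1.87 ± 0.37 (adjusted p = 1.03e-05), 1.54 ± 0.37 (adjusted p = 5.20e-04) and 2.73 ± 0.57 (adjusted p = 6.85e-06) in the authors' deposited tables. Its relative Cyp26b1, which clears retinoic acid too, went the other way: it fell by 1.35 ± 0.34 (adjusted p = 0.00118) in 3-week males and by 1.27 ± 0.38 (adjusted p = 0.0081) in 3-week females on the log2 scale in the authors' deposited tables. At 3 months Cyp26b1 was not called, with -0.66 ± 0.38 (adjusted p = 0.125) in the authors' deposited table. The window around the start of Cyp26a1 is shown because it holds, in capitals, 2 copies of AGTTCA with 5 bases of any kind between them, on the minus strand, the direct repeat to which retinoic acid receptors are known to bind. It starts 32 bases before the start site, on RefSeq's GRCm38.p6 at chr19:37697558-37697857, plus strand, and both strands of 27025 windows of the same length were searched.
Cyp26a1: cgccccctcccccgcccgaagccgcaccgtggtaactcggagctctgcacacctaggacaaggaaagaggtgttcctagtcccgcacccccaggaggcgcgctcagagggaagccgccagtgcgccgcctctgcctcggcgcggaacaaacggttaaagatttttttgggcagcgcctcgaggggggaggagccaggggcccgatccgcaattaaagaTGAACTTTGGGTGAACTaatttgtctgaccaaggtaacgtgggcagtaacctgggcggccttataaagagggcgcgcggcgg
The motif occurred in 7 of the 27025 windows (0.0259%), and among the 34 judged members with a window in Cyp26a1 alone. Only 34 of the 50 judged members had a window. No other spelling or spacing of the repeat was searched, so this does not show that other members lack one. The ERR response element TCAAGGTCA, found in 0.407% of all windows, was in none of the 34, and its core AAGGTCA, in 4.66% of all windows, was in that of Cyp2f2.

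Cyp4v3 encodes a fatty acid hydroxylase related to the enzyme affected in a human retinal dystrophy. Its mean counts were 950.3, 607.3 and 472.3 in the authors' deposited tables of 3-week males, 3-week females and 3-month males. The log2 fold changes were 1.41 ± 0.17 (adjusted p = 7.77e-15), 0.81 ± 0.24 (adjusted p = 0.00734) and 2.25 ± 0.30 (adjusted p = 2.57e-13) in the authors' deposited tables. Among the Cyp4 genes it was the one called in every comparison.

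The Cyp4a genes code for fatty acid omega-hydroxylases, known targets of the receptor PPARα, and were among the most abundant P450 transcripts. Cyp4a14 was first at 3 weeks, at 1213 CPM (counts per 1e6) per kilobase of transcript in males and 1166 in females, computed from the authors' deposited tables, ahead of Cyp4a10 at 733.0 and 736.3. Cyp4a31 fell by 0.93 ± 0.18 (adjusted p = 5.61e-06) in 3-week males and by 1.50 ± 0.21 (adjusted p = 5.14e-11) in 3-week females on the log2 scale in the authors' deposited tables, and at 3 months stood at -3.16 ± 0.49 with no p-value. For Cyp4a10 the drop in 3-week males was 0.78 on the log2 scale, at -0.78 ± 0.24 (adjusted p = 0.00979) in the authors' deposited table, and it was not called under total-count scaling (-0.60, adjusted p = 0.0582). Cyp4a10 had no p-value elsewhere, at -1.02 ± 0.30 in females and -2.67 ± 0.35 at 3 months in the authors' deposited tables. Cyp4a14 was at -0.43 ± 0.24 (adjusted p = 0.229) in 3-week males in the authors' deposited table and at -0.88 ± 0.32 and -1.78 ± 0.49 without a p-value in the others. Negative fold changes in every comparison were thus shared by Cyp4a10, Cyp4a14 and Cyp4a31, with a call in 3 of 9 values.

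Other Cyp4a genes behaved otherwise, and their counts are less certain. Cyp4a12b rose by 1.10 ± 0.27 (adjusted p = 8.12e-04) in 3-week males on the log2 scale in the authors' deposited table and was at 0.47 ± 0.28 (adjusted p = 0.257) in females and -1.31 ± 0.67 with no p-value at 3 months. Cyp4a12a, which makes the vasoactive product of arachidonic acid in male mouse kidney, was at 0.05 ± 0.36 (adjusted p = 0.958) in 3-week males in the authors' deposited table and at -3.28 ± 0.69 with no p-value at 3 months. Cyp4a32 was at 0.79 ± 0.34 (adjusted p = 0.0916) in 3-week males and fell by 1.99 ± 0.39 (adjusted p = 1.39e-06) at 3 months on the log2 scale in the authors' deposited tables. Coding sequences of Cyp4a12a and Cyp4a12b are 98.6% identical, those of Cyp4a10 and Cyp4a32 97.2%, of Cyp4a10 and Cyp4a31 96.6% and of Cyp4a31 and Cyp4a32 96.0%. The sources used here do not say how reads shared by such copies were assigned, and values of a single copy are uncertain.

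Cyp4b1, which hydroxylates fatty acids and foreign compounds and is known to respond to androgen in mouse kidney, had the most negative called fold change of the family at 3 months. Its mean counts were 2423 and 1353 at 3 weeks in males and females and 56594 in 3-month males in the authors' deposited tables. It fell by 1.50 ± 0.27 (adjusted p = 9.77e-07) in 3-week males and by 4.26 ± 0.28 (adjusted p = 3.71e-51) at 3 months on the log2 scale in the authors' deposited tables. In females it was at -1.70 ± 0.37 with no p-value in the authors' deposited table. Cyp4b1 has no copy among the members with a coding identity of 80% or more. The window at its start (RefSeq GRCm38.p6, chr4:115647672-115647971, minus strand) is shown because this gene was the most abundant member at 3 months, and none of the 4 searched motifs is in it, so it has no capitals.
Cyp4b1: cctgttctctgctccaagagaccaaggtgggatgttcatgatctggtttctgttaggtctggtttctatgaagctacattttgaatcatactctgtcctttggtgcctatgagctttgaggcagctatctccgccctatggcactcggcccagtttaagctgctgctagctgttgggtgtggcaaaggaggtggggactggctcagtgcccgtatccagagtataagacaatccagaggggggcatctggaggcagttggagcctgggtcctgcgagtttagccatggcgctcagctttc

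Cyp4f enzymes hydroxylate leukotrienes and long fatty acids, and 2 of them rose and 1 fell. Cyp4f18, known for inactivating leukotriene B4 in neutrophils, rose by 2.73 ± 0.45 (adjusted p = 1.14e-08) and Cyp4f16 by 1.04 ± 0.15 (adjusted p = 3.08e-11) at 3 months on the log2 scale in the authors' deposited table. Neither passed at 3 weeks, where Cyp4f18 was at 0.77 ± 0.41 (adjusted p = 0.205) in males in the authors' deposited table. Cyp4f15 and Cyp4f39 had the 2 most positive values of the family at 3 months, 4.30 ± 0.63 and 4.36 ± 0.69 in the authors' deposited table, both without a p-value, and Cyp4f14 was at -2.07 ± 0.64, also without one. Cyp4f13 was the exception: it fell by 0.36 ± 0.12 (adjusted p = 0.0165) in 3-week females, a call lost with total-count scaling (-0.21, adjusted p = 0.183), and by 0.93 ± 0.12 (adjusted p = 7.97e-15) at 3 months on the log2 scale in the authors' deposited tables. Over the 15 judged Cyp4 genes, 2 were called higher and 3 lower of 14 tested in 3-week males, 1 and 2 of 12 in females, and 3 and 3 of 7 at 3 months in the authors' deposited tables. Of all genes 8.81%, 8.29% and 29.8% were called higher and 8.52%, 10.4% and 27.8% lower.

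Cyp2j enzymes epoxidize arachidonic acid, and 1 of them carried the most positive called fold change of the family. Cyp2j13 had mean counts of 478.3 in 3-week males and 323.9 in 3-week females in the authors' deposited tables and was higher in the knockout by 4.25 ± 0.31 (adjusted p = 2.67e-40) and 4.65 ± 0.37 (adjusted p = 4.06e-34) on the log2 scale. At 3 months its mean count was 5220 and its log2 fold change -2.24 ± 0.64 with no p-value in the authors' deposited table. Its closest judged relative, Cyp2j9, has a coding identity of 80.6%. The window at the start of Cyp2j13 (RefSeq GRCm38.p6, chr4:96077491-96077790, minus strand) is shown for this large change, with the core of the aryl hydrocarbon receptor element, GCGTG, in capitals 68 bases before the start site.
Cyp2j13: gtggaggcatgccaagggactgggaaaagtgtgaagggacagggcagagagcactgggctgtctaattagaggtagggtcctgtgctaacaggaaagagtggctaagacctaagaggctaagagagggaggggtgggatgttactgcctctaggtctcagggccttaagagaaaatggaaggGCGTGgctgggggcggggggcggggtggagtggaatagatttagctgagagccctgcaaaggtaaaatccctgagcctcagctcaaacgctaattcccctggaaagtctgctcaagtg
This short motif is common, in 32.5% of all windows and 13 of the 34 of judged members.

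The Cyp2j neighbours of Cyp2j13 on chromosome 4 were between -0.92 and 0.31 at 3 weeks in the authors' deposited tables, and at 3 months they were negative, as it was. Cyp2j5, the abundant kidney epoxygenase, fell by 0.61 ± 0.18 (adjusted p = 0.00534) in 3-week males on the log2 scale in the authors' deposited table, was at 0.12 ± 0.24 (adjusted p = 0.798) in females, and was at -2.02 ± 0.55 without a p-value at 3 months. The call in 3-week males was lost with total-count scaling (-0.43, adjusted p = 0.0675). Cyp2j11 fell by 0.71 ± 0.18 (adjusted p = 0.00102) in 3-week males on the log2 scale and was at -0.57 ± 0.31 and -2.08 ± 0.51 without a p-value in the authors' deposited tables of females and 3-month males. Cyp2j9 was at 0.31 ± 0.21 (adjusted p = 0.372) in 3-week males and fell by 0.68 ± 0.25 (adjusted p = 0.034) in 3-week females and by 1.87 ± 0.28 (adjusted p = 1.12e-10) at 3 months on the log2 scale in the authors' deposited tables; the female call was lost with total-count scaling (-0.53, adjusted p = 0.0997). The low Cyp2j8, with a mean count of 24.4 at 3 months, fell by 3.52 ± 0.58 (adjusted p = 6.22e-09) in the authors' deposited table. Cyp2j6 was called nowhere, between -0.39 and -0.01 in the authors' deposited tables.

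**Figure D2:**
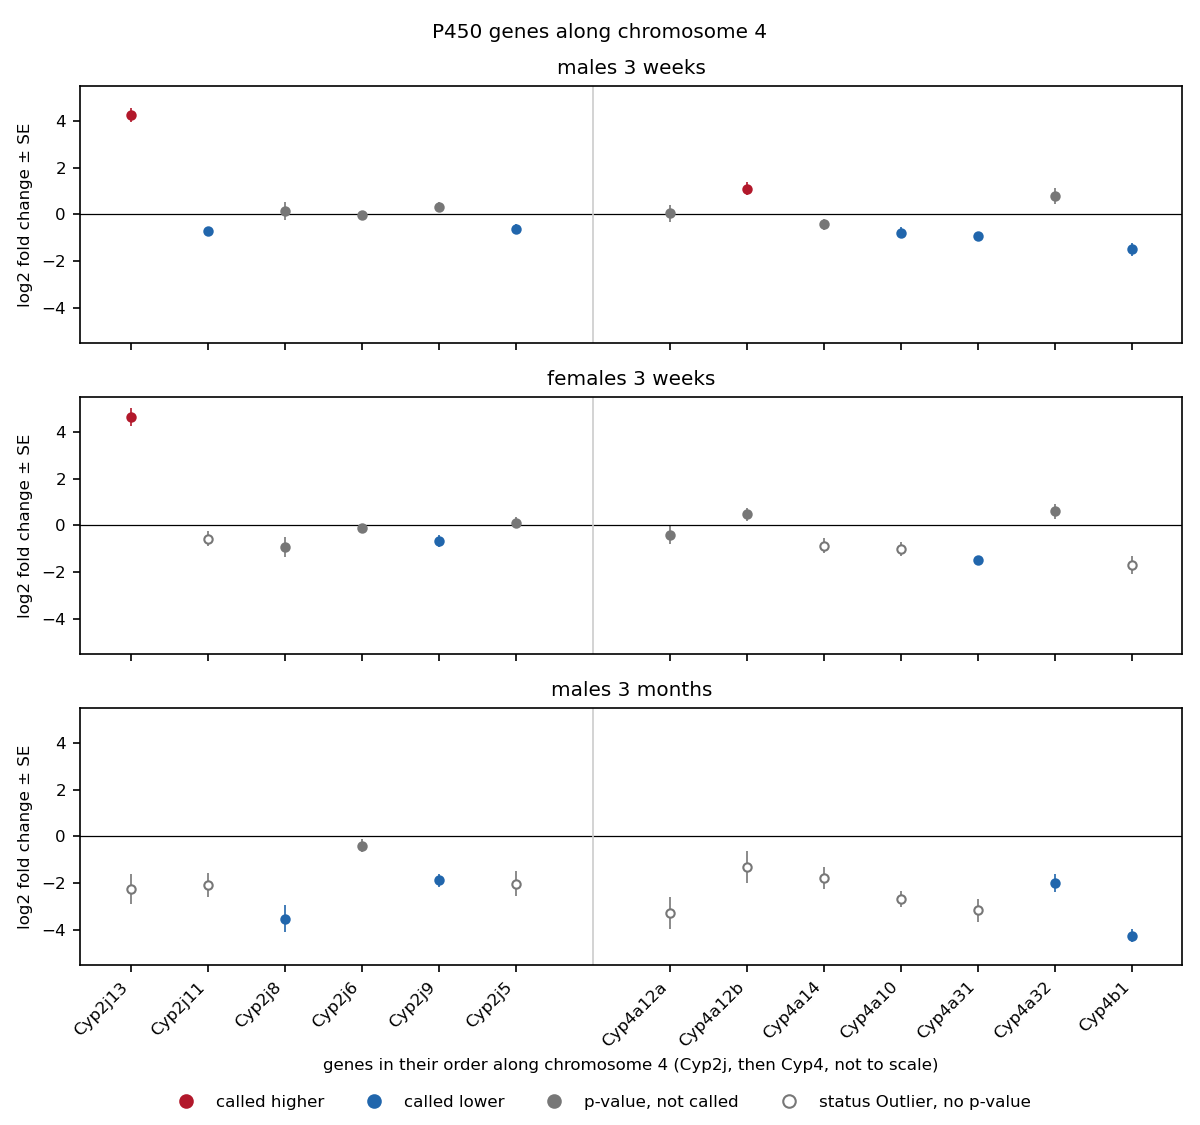
Log2 fold changes (± SE, y axis) of the judged P450 genes on chromosome 4 in genomic order (x axis) for the 3 comparisons; filled colours mark calls and open points have no p-value. Cyp2j13 stands at 4.25 and 4.65 at 3 weeks beside Cyp2j neighbours between -0.92 and 0.31, and at -2.24 at 3 months.

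Of the called Cyp2 genes grouped here under drug and chemical metabolism (Cyp2a to Cyp2g and Cyp2t), all but Cyp2f2 were lower. The group includes the pseudogene Cyp2d37-ps and the epoxygenase Cyp2c44. It leaves out Cyp2j, described above, and Cyp2r1, Cyp2s1, Cyp2u1 and Cyp2w1. Of the latter, only Cyp2s1 was called, and it was higher at 3 months. In 3-week males 5 of 8 tested were called lower and none higher, in females 3 of 4 lower and none higher, and at 3 months 5 of 6 lower and 1 higher, in the authors' deposited tables, beside 8.52%, 10.4% and 27.8% of all genes called lower. Those without a p-value were positive for 3 of 3 in 3-week males, 1 of 7 in females and 1 of 4 at 3 months in the authors' deposited tables. Cyp2a5, which oxidizes nicotine and coumarin, fell by 1.32 ± 0.33 (adjusted p = 0.00112) in 3-week males and by 1.51 ± 0.41 (adjusted p = 0.00245) in 3-week females on the log2 scale in the authors' deposited tables, and stood at -2.45 ± 0.46 without a p-value at 3 months. Its coding sequence is 98.5% identical to that of the steroid hydroxylase Cyp2a4, which was judged only at 3 months and had -3.60 ± 0.51 with no p-value in the authors' deposited table. Cyp2c44, an arachidonic acid epoxygenase, fell by 1.02 ± 0.20 (adjusted p = 8.10e-06) in 3-week males and by 0.67 ± 0.17 (adjusted p = 9.84e-04) in 3-week females on the log2 scale in the authors' deposited tables and was at -1.95 ± 0.51 with no p-value at 3 months.

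The Cyp2d genes, relatives of the human enzyme that oxidizes many drugs, were lower wherever they were called. Cyp2d12 fell by 1.64 ± 0.31 (adjusted p = 4.33e-06) in 3-week males and by 4.25 ± 0.32 (adjusted p = 1.57e-39) in 3-month males on the log2 scale in the authors' deposited tables. Cyp2d26 was lower at the same ages too, at -0.45 ± 0.15 (adjusted p = 0.0195) and -1.98 ± 0.25 (adjusted p = 6.69e-14) in the authors' deposited tables, the first call lost with total-count scaling (-0.28, adjusted p = 0.201). Cyp2d9 was called at 3 months only, where it fell by 2.60 ± 0.22 (adjusted p = 1.18e-29) in the authors' deposited table. In 3-week males it was at -0.60 ± 0.33 (adjusted p = 0.234), and in females it had no p-value. The pseudogene Cyp2d37-ps fell by 1.83 ± 0.35 (adjusted p = 5.65e-06) in 3-week males and by 1.41 ± 0.30 (adjusted p = 4.56e-05) in 3-week females in the authors' deposited tables and was not judged at 3 months. Cyp2d22 was at 0.05 ± 0.21 (adjusted p = 0.931) in 3-week males in the authors' deposited table. It had no p-value in females (-0.46 ± 0.29) or at 3 months (0.16 ± 0.48). Cyp2d9 and Cyp2d12 are 92.1% identical in coding sequence.

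Cyp2e1, the ethanol-oxidizing enzyme, was strongly reduced at 3 months, by 2.04 ± 0.13 on the log2 scale (adjusted p = 7.09e-57) at a mean count of 27722 in the authors' deposited table. At 3 weeks it had no p-value, with 0.43 ± 0.37 in males and -0.14 ± 0.40 in females in the authors' deposited tables. Cyp2c69 fell by 2.19 ± 0.56 (adjusted p = 3.03e-04) at 3 months at a mean count of 17.2 in the authors' deposited table, and its coding sequence is 97.9% identical to that of Cyp2c40. Against this trend Cyp2f2, known from club cells of the lung, rose by 2.99 ± 0.34 (adjusted p = 7.40e-18) at 3 months in the authors' deposited table. Of the Cyp3a genes Cyp3a13 was judged, and it rose by 1.27 ± 0.56 (adjusted p = 0.0405) at 3 months in the authors' deposited table. Cyp2b10 was judged at 3 weeks and had no p-value there.

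Among sterol enzymes, Cyp7b1, the oxysterol hydroxylase of the acidic bile acid pathway, was the member called in opposite directions. It rose by 1.57 ± 0.21 (adjusted p = 3.91e-12) in 3-week males and by 1.25 ± 0.25 (adjusted p = 1.87e-05) in 3-week females, and fell by 3.20 ± 0.34 (adjusted p = 1.82e-19) in 3-month males on the log2 scale in the authors' deposited tables. Its mean counts were 465.9, 316.2 and 1834 in the authors' deposited tables. Cyp27a1, the mitochondrial sterol hydroxylase, fell by 1.06 ± 0.32 (adjusted p = 0.00213) at 3 months in the authors' deposited table, and Cyp46a1, the cholesterol hydroxylase of neurons, fell by 0.96 ± 0.32 (adjusted p = 0.0191) in 3-week females and by 1.04 ± 0.33 (adjusted p = 0.00346) at 3 months. With total-count scaling the 3-month values of Cyp27a1 (-0.56, adjusted p = 0.108) and Cyp46a1 (-0.55, adjusted p = 0.131) were not called. Cyp39a1, which hydroxylates oxysterols, rose by 0.86 ± 0.25 (adjusted p = 0.00153) at 3 months in the authors' deposited table. Cyp51, the demethylase of cholesterol synthesis, was called nowhere, at -0.27 ± 0.16 (adjusted p = 0.29) in 3-week males and without a p-value in the other 2 tables (0.40 ± 0.37 and -1.42 ± 0.40) of the authors' deposited tables.

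Of the members known to be induced through the aryl hydrocarbon receptor, Cyp1b1 rose by 0.57 ± 0.15 (adjusted p = 0.00209) in 3-week males in the authors' deposited table and was at 0.13 ± 0.23 (adjusted p = 0.745) in females. Cyp1a1 was at -0.26 ± 0.41 without a p-value in 3-week males and at -0.03 ± 0.40 (adjusted p = 0.974) in 3-week females in the authors' deposited tables. At 3 months Cyp1a1 and Cyp1b1 stood at 2.88 ± 0.71 and 2.00 ± 0.45 without p-values in the authors' deposited table. Of the remaining genes Cyp20a1, an enzyme of unknown substrate, rose by 0.67 ± 0.19 (adjusted p = 8.42e-04) and Cyp2s1 by 0.82 ± 0.28 (adjusted p = 0.00694) at 3 months in the authors' deposited table. Cyp2u1, Cyp4f17, Cyp17a1, Cyp21a1 and the vitamin D hydroxylase Cyp2r1 were not called wherever they were judged and had a p-value.

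Levels of the family differed with age. The members made up 0.805% and 0.806% of the summed mean counts at 3 weeks in males and females and 1.26% at 3 months in the authors' deposited tables, and the 5 most abundant held 88.4%, 89.3% and 71.4% of this. At 3 weeks these were Cyp4a14, Cyp4a10, Cyp2j5, Cyp2d26 and Cyp4a31, and at 3 months Cyp4b1, Cyp4a10, Cyp4a14, Cyp2e1 and Cyp2j5. Mean CPM over both genotypes, computed from the authors' deposited tables of males, rose from 1.64 to 331.2 for Cyp2d9 (a ratio of 202) and from 51.0 to 3009 for Cyp4b1 (a ratio of 59). Ratios computed from the authors' deposited tables were 108 for Cyp2a5, 102 for Cyp4a12a, 28.3 for Cyp2d12, 27.6 for Cyp2j13, 11.1 for Cyp2e1 and 9.94 for Cyp7b1. Cyp2a4 went from 0.0349 to 313.0 CPM in the authors' deposited tables, the first a level too low to be judged. In the other direction the ratio was 0.218 for Cyp2d26 and 0.493 for Cyp4a14 in the authors' deposited tables. The tables were normalized separately and mix the genotypes, so these ratios carry no test, and age and library batch cannot be told apart.

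**Figure D3:**
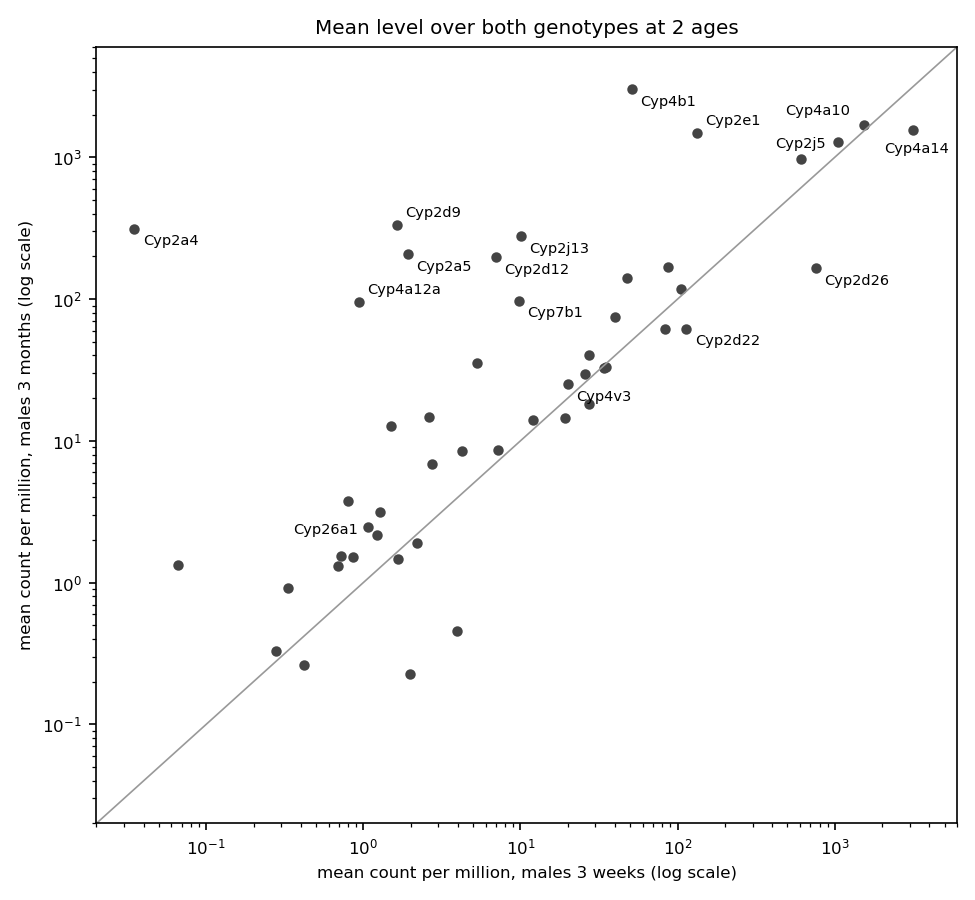
Mean normalized CPM over both genotypes in 3-week males (x axis, log scale) and 3-month males (y axis, log scale), 1 point per P450 gene judged at either age, with a line of equality. Cyp2d9, Cyp2a5, Cyp4a12a, Cyp4b1 and Cyp2j13 lie far above the line and Cyp2d26 below it.

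The mean and the fold change together imply a level for each side of the ratio. The steps put 2 of the 4 libraries of 3-week males and 2 of the 5 of 3-month males on its positive side, which is the knockout side as the ratio was read here; with the ratio turned, the names control and knockout swap. For Cyp7b1 the implied levels were 4.95 CPM in control and 14.7 in knockout at 3 weeks and 152 and 16.5 at 3 months, from the authors' deposited tables. For Cyp2j13 they were 1.00 and 19.1 at 3 weeks and 406 and 85.6 at 3 months, from the authors' deposited tables. For Cyp2d12 they were 10.5 and 3.38 at 3 weeks and 317 and 16.6 at 3 months, from the authors' deposited tables. The 3-month levels of Cyp2j13 rest on a fold change of the status Outlier. All these levels hold only if the deposited fold changes are plain ratios of group means. At the lowest counts the fold changes were not, and for these 3 genes this was not tested. The implied levels have no error of their own and carry no test.

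The difference between the ages was then tested as the difference of the deposited log2 fold changes over their combined SE, with a normal p adjusted by Benjamini-Hochberg over all genes that have a p-value in both tables. It was called for 12 of 25 members, 3 with a more positive and 9 with a more negative value at 3 months, against 27.7% of all genes (16.8% positive, 10.9% negative). Among these 25, Cyp7b1 differed most, by -4.77 on the log2 scale from the authors' deposited tables, followed by Cyp2j8 (-3.68), Cyp4a32 (-2.78), Cyp4b1 (-2.76), Cyp2d12 (-2.62), Cyp2j9 (-2.18) and Cyp2d9 (-2.00). All fold changes of the 3-month table were spread more widely, and after the spread of both tables was equated (a factor of 0.41) 4 members kept the call: Cyp7b1, Cyp2j8, Cyp2j9 and Cyp4a32. The last is the gene with near-identical copies. With genes of the status Outlier given a p, Cyp2j13 had a larger difference than Cyp7b1, of -6.50 (adjusted p = 1.53e-17) from the authors' deposited tables. That p uses the deposited 3-month fold change and SE of Cyp2j13, for which the authors' p-value was withheld. It therefore cannot support the difference.

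**Figure D4:**
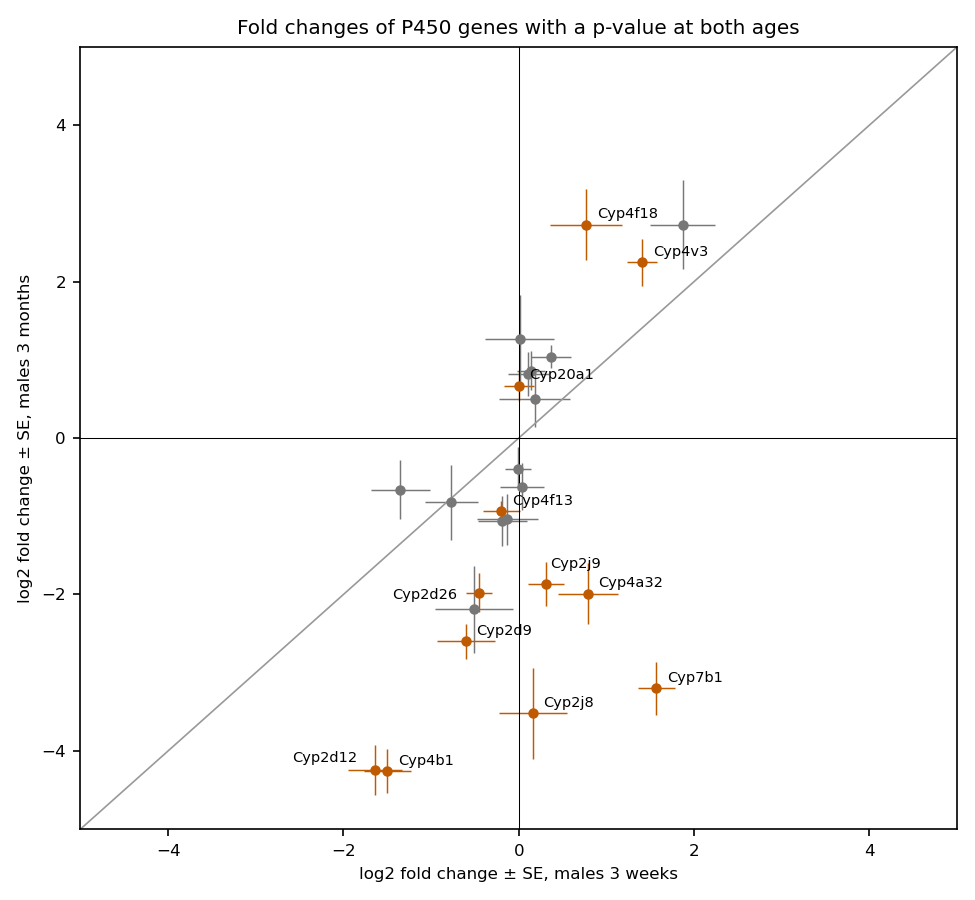
Log2 fold changes (± SE) of the 25 P450 genes with a p-value in both tables of males, at 3 weeks (x axis) and 3 months (y axis), with a line of equality; orange points have a called difference. Cyp7b1, Cyp4a32, Cyp2j9 and Cyp2j8 lie at positive values at 3 weeks and negative values at 3 months. Of these, only Cyp7b1 was called at 3 weeks.

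No difference between the sexes at 3 weeks was called by the same test. It called 0 of 32 members and 0 of 13737 genes (0%), with 4 members and 237 genes (1.73%) at an unadjusted p under 0.05. Without any difference, p-values from well-fitted SEs would put a share of 0.05 of the genes there. The lower share means that the test was conservative on these tables. The lack of calls therefore does not show that the sexes respond alike. Members called in both sexes were Cyp26a1, Cyp2j13, Cyp4v3 and Cyp7b1 (higher) and Cyp26b1, Cyp2a5, Cyp2c44, Cyp2d37-ps and Cyp4a31 (lower) in the authors' deposited tables. The largest departure was Cyp2j9, at -0.68 in females and 0.31 in males on the log2 scale in the authors' deposited tables, a difference of -0.99 ± 0.33 (adjusted p = 1). The median SE of the difference over members was 0.44, and even this difference of 0.99 in size, at 3 times its SE, did not pass the adjustment over all genes.

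Genes that serve the enzymes were described as lists. Of the electron donors, 2 of 9 tested were called lower in 3-week males, 1 of 8 in females and 3 of 8 at 3 months, and none higher, in the authors' deposited tables, beside 8.52%, 10.4% and 27.8% of all genes called lower. Fdxr, the reductase that feeds mitochondrial P450s, was lower throughout, at -0.82 ± 0.25 (adjusted p = 0.00795), -0.93 ± 0.17 (adjusted p = 2.34e-06) and -0.92 ± 0.16 (adjusted p = 4.91e-08) in the 3 comparisons in the authors' deposited tables. Por, the reductase of all microsomal P450s, fell by 1.05 ± 0.20 (adjusted p = 4.15e-07) at 3 months in the authors' deposited table and was at -0.15 ± 0.22 (adjusted p = 0.742) in 3-week males. Of the haem genes 2 of 12 tested were called lower in 3-week males, 4 of 11 in females and 9 of 10 at 3 months, none higher, in the authors' deposited tables. The shares of all genes called lower are those given for the electron donors. Fech, which puts iron into haem, was lower at -0.54 ± 0.17 (adjusted p = 0.0104), -0.57 ± 0.10 (adjusted p = 8.21e-08) and -1.80 ± 0.09 (adjusted p = 1.18e-88) in the authors' deposited tables. With scaling to total counts every value at 3 months would be 0.49 higher, more than the size of the called values of Hmox2 (-0.40) and Ppox (-0.46) in the authors' deposited table.

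Epoxide hydrolases open the epoxides that P450s make. Ephx2 was lower, at -0.60 ± 0.16 (adjusted p = 0.00219) and -0.71 ± 0.12 (adjusted p = 3.89e-08) in 3-week males and females in the authors' deposited tables. Ephx1 fell by 0.91 ± 0.26 (adjusted p = 0.00402) in 3-week females and rose by 2.00 ± 0.17 (adjusted p = 5.15e-31) at 3 months in the authors' deposited tables. With the P450s under other symbols, Tbxas1 and Ptgis, this list had 1 higher and 1 lower of 4 tested, 0 and 2 of 5, and 1 and 0 of 3 in the authors' deposited tables. Over all genes, 8.81%, 8.29% and 29.8% were called higher and 8.52%, 10.4% and 27.8% lower.

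Over all genes, 8.81%, 8.29% and 29.8% were called higher and 8.52%, 10.4% and 27.8% lower in the 3 comparisons. Of the receptors and partners that control P450 genes, 1 was called higher in each comparison, and 1 of 9, 3 of 10 and 6 of 9 tested were called lower in the authors' deposited tables. The higher gene was Ahr, the aryl hydrocarbon receptor, at 0.73 ± 0.25 (adjusted p = 0.0235), 0.63 ± 0.17 (adjusted p = 0.00367) and 2.75 ± 0.31 (adjusted p = 1.81e-17) in the authors' deposited tables. Ppara, which encodes PPARα, fell by 3.01 ± 0.22 (adjusted p = 1.93e-40) at 3 months in the authors' deposited table and was at -0.20 ± 0.23 (adjusted p = 0.655) in 3-week males. Nr1h4, the bile acid receptor, fell by 2.37 ± 0.17 (adjusted p = 5.16e-44) at 3 months and by 0.71 ± 0.15 (adjusted p = 3.68e-05) in 3-week females in the authors' deposited tables.

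**Figure D5:**
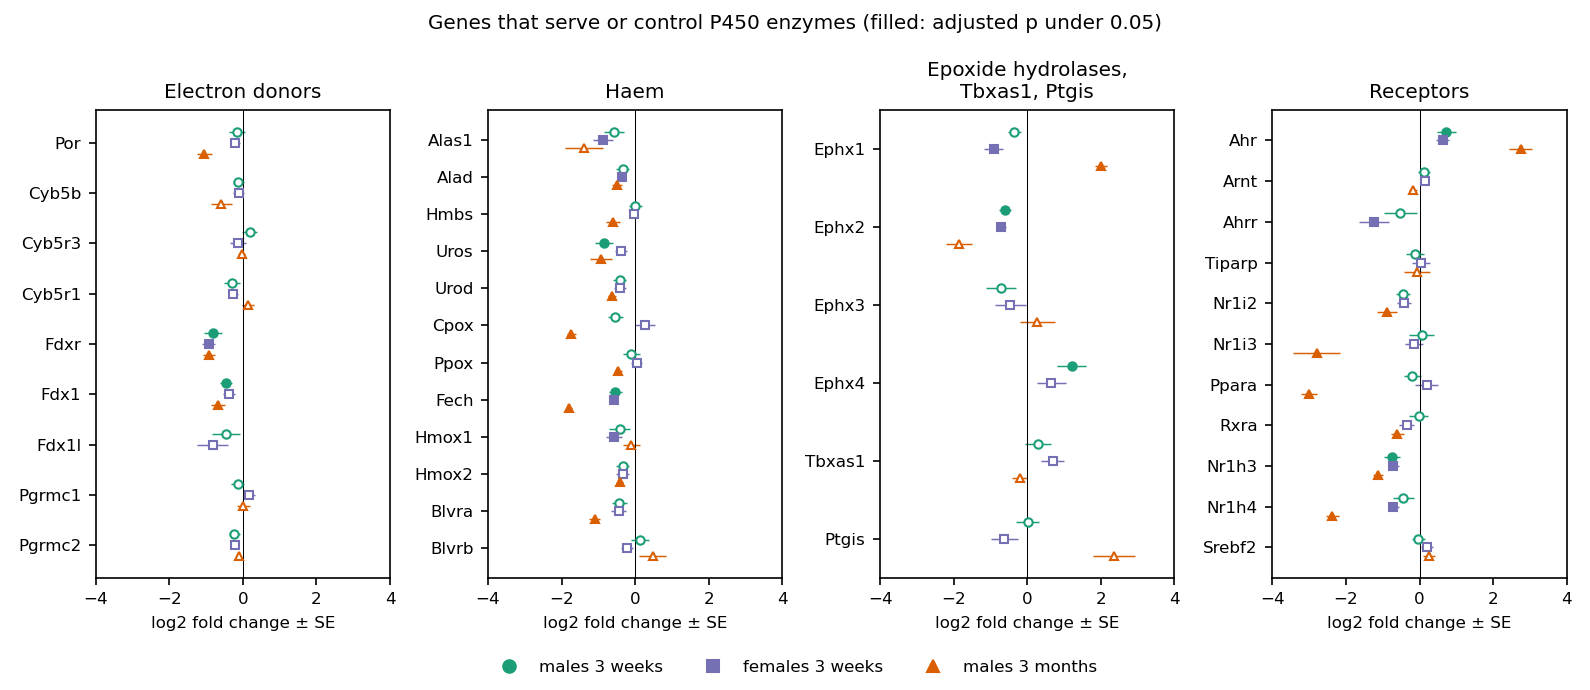
Log2 fold changes (± SE, x axis) of the genes that supply electrons and haem, open epoxides or control P450 genes (y axis) in the 3 comparisons; filled points were called. Ppara, Nr1i3, Nr1h4, Cpox and Fech are among the called genes furthest to the left at 3 months, and Ahr and Ephx1 lie to the right.

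All called markers of proximal tubule cells, which hold most P450 enzymes, went in the same direction, whereas P450 genes were called in both directions. For the markers it was lower as the ratio was read here. That reading came from the series title, which ties the receptor to reabsorptive genes, so the sign of such markers is no independent result. Of the 10 proximal tubule markers, 7 of 9 tested were called lower in 3-week males, 5 of 8 in females and 4 of 4 at 3 months, none higher, in the authors' deposited tables; the 6 others at 3 months were negative without a p-value, and the 10 ranged from -4.95 to -0.77. Their tested medians were -0.87, -0.50 and -3.33 in the authors' deposited tables, beside those of -0.07, -0.09 and -0.82 for the P450 genes. At 3 months these tested medians rest on 4 of the 10 markers and on 27 P450 genes. Over all judged genes, with or without a p-value, the medians were -0.89, -0.50 and -2.64 for the markers. For the P450 genes they were 0.00, -0.19 and -1.31. In bulk tissue fewer such cells and less RNA per cell cannot be told apart, and the part of these cells in the P450 values was not tested. Of the androgen-regulated kidney genes, 2 of 3 tested were called lower in 3-week males, 3 of 4 in females and 1 of 2 at 3 months, none higher, in the authors' deposited tables. For this list and the tubule markers, the shares of all genes called lower were 8.52%, 10.4% and 27.8%. Kap was lower at -0.53 ± 0.19 (adjusted p = 0.033), -0.73 ± 0.22 (adjusted p = 0.00856) and -2.94 ± 0.30 (adjusted p = 1.57e-21) in the authors' deposited tables, and Slco1a1 was at -5.80 ± 0.67 without a p-value at 3 months. Gusb was not called, at 0.26 ± 0.18 (adjusted p = 0.395), 0.15 ± 0.19 (adjusted p = 0.64) and 0.11 ± 0.15 (adjusted p = 0.543) in the authors' deposited tables. The part of androgen in the 3-month values was not tested.

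Other cell types were checked the same way. Their counts stand beside 8.81%, 8.29% and 29.8% of all genes called higher and 8.52%, 10.4% and 27.8% called lower. Fat cell markers were called for 0 of 1 and 0 of 2 tested at 3 weeks and for 4 of 4 at 3 months, all higher. All 9 of the list were positive at 3 months, from 2.81 to 6.80, in the authors' deposited table. At 3 weeks 8 of 9 judged markers in males and 6 of 8 in females had the status Outlier and no p-value. The summed markers stood at 194, 115 and 437 CPM in the 3 comparisons, so few calls at 3 weeks do not mean absent fat cells. The part of fat cells in the P450 values was not tested at either age. Endothelial markers were called lower for 2 of 8 in 3-week males and 8 of 8 in females, and at 3 months 1 higher and 1 lower of 6, in the authors' deposited tables. Adrenal cortex markers had no call at 3 weeks (of 3 and 4 tested) and 1 higher of 2 at 3 months, Mrap, which fat cells also express, and the defining Cyp11b1 and Cyp11b2 had mean counts of at most 0.2 and 0.4 in the authors' deposited tables. Hepatocyte markers had 2 higher and 1 lower of 5 tested in 3-week males, none of 5 in females and 2 lower of 2 at 3 months in the authors' deposited tables.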

How the data were processed

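Kidney RNA libraries of 15 mice were compared in 3 tables. Per the submitters' processing notes mm10, STAR, HOMER and DESeq2 were used, with versions not given in the sources used here. Per the file headers, the authors deposited a mean of normalized counts per gene (a signal over libraries), a log2 fold change with its SE, a p-value, an adjusted p-value and a status, and no value per library; on the values 100% of the p-values equalled the normal p of fold change over SE within 1%. No refit was possible, and the authors' adjusted p over all genes of a table (called under 0.05) was kept. P-values measure only the spread between the libraries of a table; the labels call the animals littermates and name separate samples.

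Symbols turned into dates (27) were left out. Python 3.11.15, numpy 2.4.6, scipy 1.17.1 and pandas 2.3.3 computed the differences between tables. The computation was tried on simulated fold changes with noise drawn from the deposited SEs. That trial cannot show whether those SEs fit the data. The program edlib aligned the longest reading frames of GENCODE M21 transcripts for coding identity. Promoter windows are those of RefSeq (250 bases before to 50 after a start).

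Named were members called in all tables, the 8 called with the largest fold change per direction and table, the 10 most abundant, those with a called difference and, of each list, at most 4 called genes by p. Further members, and uncalled values of listed genes, were added after their values were seen so that each judged member is accounted for. The members and lists were chosen with earlier results of these data known. Alternatives were other thresholds on p, mean and fold change, other scalings, Outlier genes given a p and equated spread.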

Additional observations from a re-analysis of the deposited data

Results flagged for a closer look

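For 12 P450 genes the effect of genotype differed between 3-month and 3-week males by the test of the difference itself. The differences of the log2 fold changes (3 months minus 3 weeks) were positive for Cyp4f18 (1.96), Cyp4v3 (0.84) and Cyp20a1 (0.67). They were negative for Cyp7b1 (-4.77), Cyp2j8 (-3.68), Cyp4a32 (-2.78), Cyp4b1 (-2.76), Cyp2d12 (-2.62), Cyp2j9 (-2.18), Cyp2d9 (-2.00), Cyp2d26 (-1.52) and Cyp4f13 (-0.73). With the spread of both tables equated, the call was kept for Cyp7b1, Cyp2j8, Cyp2j9 and Cyp4a32 and lost for the other 8, and that of Cyp4v3 turned to -0.48 (adjusted p = 0.217). Of all genes 27.7% had a called difference, and age and library batch cannot be told apart.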

How the results depend on the processing

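With a log2 fold change of at least 1, 11 members were called in 3-week males (6 lower) and 7 in 3-week females (4 lower). At an adjusted p under 0.01, 5 members were called lower in females. With every gene that has a fold change and an SE given a p, which drops the minimum mean and also admits the status Outlier, 13 were called lower in females, and at 3 months 41 were called, 16 higher and 25 lower. With the minimum mean kept and p-values for genes of the status Outlier, 13 were called lower in females and 38 at 3 months, of which 25 lower, and the difference between ages was called for 27 members. The p-values given to Outlier genes rest on estimates for which the authors' p-value was withheld, so these counts carry no added support. With the spread of both tables equated it was called for 4, and that of Cyp4v3 turned to -0.48 (adjusted p = 0.217). With the median of all genes set to 0 the difference of Cyp4v3 was 0.83 (adjusted p = 0.0537). Causes were not tested beyond what each alternative changes by construction. Total-count scaling gave 16, 10 and 21 called members, of which 50%, 60% and 52.4% were lower, against 64.7%, 66.7% and 59.1%; 7 single calls were lost. Setting the median to 0, a minimum mean of 50 and an adjusted p under 0.1 left all counts of called members within 1.5 times.

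No paired analysis was possible because the library numbers in the labels do not repeat across groups and the tables hold no values per library. Leaving out each replicate was not run for the same reason. The SE of members reached 0.79 at 3 months, and the largest SE of any gene was 0.44, 0.42 and 1.10 in the 3 comparisons. At 3 weeks the lowest members had small SEs. Cyp2c29 (mean 0.208) was at 0.04 ± 0.11 in 3-week males, whereas Cyp4b1 (mean 2423) had an SE of 0.27. A small SE at a low count is thus no sign of precision. The mean of Cyp2c29 equals a lowest step, that of a gene read in a single library, where a plain ratio would be far from 0. Deposited fold changes at the lowest counts were thus not plain ratios of group means. How far those of judged members had been pulled toward 0 was not tested, and the pull may differ between tables. The difference tests took fold changes and SEs as deposited.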
